A study of Homo sapiens with 24 samples.

Results

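Keratins are the intermediate filament proteins of epithelial cells, and the 55 protein-coding keratin genes described here are the genes whose GENCODE 29 symbol is KRT, a number and at most 1 letter, out of 57500 genes in the count tables and 19737 protein-coding genes. Filaments form from pairs of an acidic type I and a basic type II chain. Of the 55 genes, 28 are type I, 26 are type II and 1, KRT222, was not assigned a type. Which pairs a cell makes depends on the epithelium: KRT8 and KRT18 in simple epithelia, KRT5 and KRT14 in the basal layer of stratified epithelia, KRT4 and KRT13 in the upper layers of non-cornified mucosa such as that of the mouth, and KRT6A, KRT6B, KRT16 and KRT17 after wounding. Keratins also take part in the stress response of epithelia.

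RNA was sequenced from spheroids of FaDu and SAS, squamous carcinoma cell lines from the hypopharynx and the tongue, after 4 days of growth in agarose-coated wells to a mean diameter of about 400 µm. Each line had 4 groups of 3 replicates, which makes 24 libraries: Control, RT (a single dose of 7 Gy for FaDu and of 10 Gy for SAS), HT (hyperthermia at 42.5 °C for 60 min) and HT+RT, and RNA was collected 0.5 h after treatment. The radiation dose differs between the lines. Library totals ran from 15203484 to 29452514 counts, with a median of 18378943. TMM factors from the full set of 24 libraries scale each level (in CPM), given as mean ± SD with n = 3 unless stated otherwise, and levels of different genes are compared only per kb of exon. A keratin is called altered at an adjusted p under 0.05 with an absolute log2 fold change over 1, by the edgeR quasi-likelihood test with Benjamini-Hochberg adjustment over all genes tested in that comparison. Log2 fold changes are given ± SE.

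All 55 keratins had at least 1 count, but only 25 had enough counts to be tested in any of 14 comparisons. The other 30 had between 1 and 102 counts summed over the 24 libraries and together held 0.0124% of the 6836766 keratin counts. Of the 26 hair and root sheath keratins, 22 were among these 30. The epithelial origin of these squamous carcinoma lines shows in the markers. All 10 epithelial markers (CDH1, EPCAM, CLDN4, CLDN7, ESRP1, ESRP2, TP63, SFN, DSG3 and PERP) reached 1 CPM in all 8 groups. Their summed level was 2426.5 CPM in FaDu controls and 2178 CPM in SAS controls. PERP was at 710.2 CPM in FaDu controls, and SFN at 532 CPM in SAS controls. Markers of other cell types were low: of 5 leukocyte markers CD14 was at 5.34 and 8.13 CPM in the FaDu and SAS controls, with PTPRC and CD3E near 0, and of 5 endothelial markers CDH5 was at 4.19 and 14.5 CPM, with KDR at 0 counts in both control groups. Among 7 fibroblast markers only COL1A1 reached 1 CPM, at 41.9 CPM in FaDu controls and 1.33 CPM in SAS controls. RNA was measured in whole spheroids, so fewer cells of a type and less RNA per cell cannot be told apart.

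One set of libraries stands apart. Replicate 1 of FaDu differed from replicates 2 and 3 in the same keratins in all 4 conditions. KRT4, a mucosal type II keratin, stood at 70.3, 358 and 334 CPM in the FaDu controls and at 70.4, 399 and 341 CPM after HT. KRT8, the simple epithelial type II keratin, stood at 1274, 2942 and 2819 CPM in the controls, and KRT6A, a type II keratin of wounded epithelium, at 520.2, 324 and 335 CPM. Replicate 1 is thus the low library for KRT4 and KRT8 and the high one for KRT6A, with a gap to the other replicates far wider than the gap between those. Among the 21 named keratins with a mean of 1 CPM in FaDu, 5 (KRT4, KRT8, KRT13, KRT15 and KRT18) were lower and 1 (KRT6A) was higher by at least 1.5-fold in replicate 1 than in the mean of the other replicates in all 4 conditions. Over 14200 genes the same rule picked 321, or 2.26%, for FaDu replicate 1. It picked 0.408% of genes for FaDu replicate 2, with 1 keratin (KRT4), and 0.232% for FaDu replicate 3, with 0 keratins. In SAS it picked 0 of 17 keratins for each replicate, against 0.117%, 0.0954% and 0.418% of genes for replicates 1, 2 and 3. Over the 4 conditions, the replicate 1 level was 4.42-fold to 5.25-fold below the others for KRT4 and 1.53-fold to 1.67-fold above them for KRT6A. The labels do not say what replicates with the same number share. For the keratins picked for FaDu replicate 1, fold changes between the control groups are given with and without it. So are the FaDu heat counts.

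**Figure D1:**
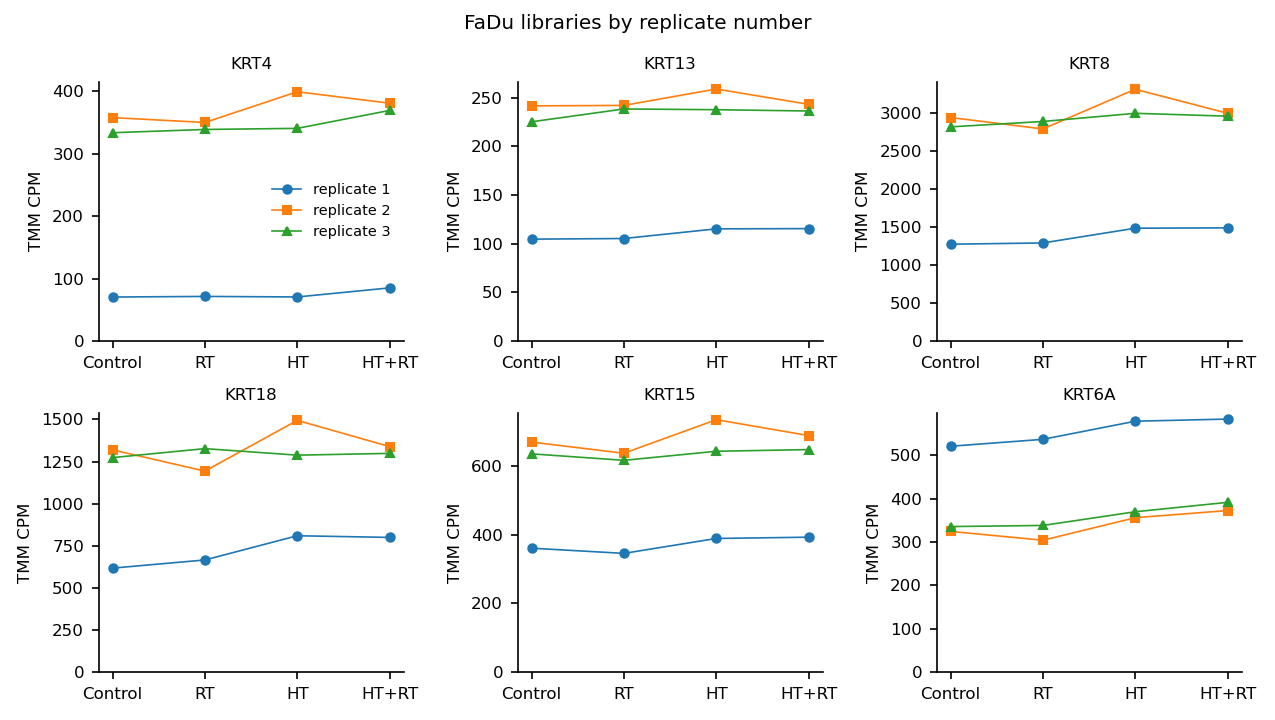
Level in TMM CPM (y axis, from 0) of 6 keratins in the 12 FaDu libraries, by condition (x axis), with a line joining libraries of the same replicate number. Replicate 1 is lowest for KRT4, KRT13, KRT8, KRT18 and KRT15 and highest for KRT6A in all 4 conditions.

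Keratin content was summed per library. In controls keratins made up 1.58 ± 0.232% of all counts in FaDu and 1.29 ± 0.0539% in SAS, and after HT 1.73 ± 0.223% and 1.40 ± 0.0427%. Over all libraries of a line, treated ones included, they made up 1.64% ± 0.196 (SD, n = 12) in FaDu, with a lowest value of 1.32%, a median of 1.69% and a highest value of 1.91%. In SAS they made up 1.32% ± 0.0749 (SD, n = 12), with a lowest value of 1.19%, a median of 1.33% and a highest value of 1.42%. The ranges overlap because of the FaDu replicate 1 libraries, which hold 1.32%, 1.34%, 1.48% and 1.44% in Control, RT, HT and HT+RT. A few genes carry most of this. In FaDu controls KRT17 held 29.8% of the keratin counts, KRT5 25.6%, KRT8 16.4%, KRT18 7.48% and KRT19 6.43%. In SAS controls KRT8 held 31.4%, KRT18 22.4%, KRT7 19.6%, KRT17 11.0% and KRT5 8.99%. These are shares of counts, not scaled by gene length. Without the keratin with the most counts the shares over all 12 libraries were 1.11% in FaDu and 0.893% in SAS.

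On the per-kb scale, KRT17 was the top keratin of FaDu controls at 1378 CPM per kb of all exons, followed by KRT5 at 872, KRT19 at 401, KRT8 at 341 and KRT18 at 333. KRT17 and KRT5 keep ranks 1 and 2 per kb of the longest principal transcript, where KRT8 (1103) comes before KRT18 (685) and KRT19 (674). The positions of KRT8, KRT18 and KRT19 in FaDu are close to each other and depend on the length used. In SAS controls the order per kb of all exons was KRT18 (942), KRT7 (649), KRT8 (617), KRT17 (477) and KRT5 (284). Per kb of the principal transcript KRT8 (1998) leads KRT18 (1939.9) and KRT7 (1515), so the first 3 ranks in SAS are not settled by these data. In controls the summed level of type I over type II chains per kb of all exons was 1.74 ± 0.129 in FaDu and 1.10 ± 0.0247 in SAS. Over all libraries, treated ones included, it was 1.83 ± 0.122 (SD, n = 12) in FaDu and 1.10 ± 0.0416 in SAS. Per kb of the principal transcript it was 1.66 ± 0.0727 in FaDu and 0.832 ± 0.0285 in SAS, so type I chains exceed type II chains in FaDu by both lengths, while in SAS the side of 1 on which the ratio falls depends on the length.

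**Figure D2:**
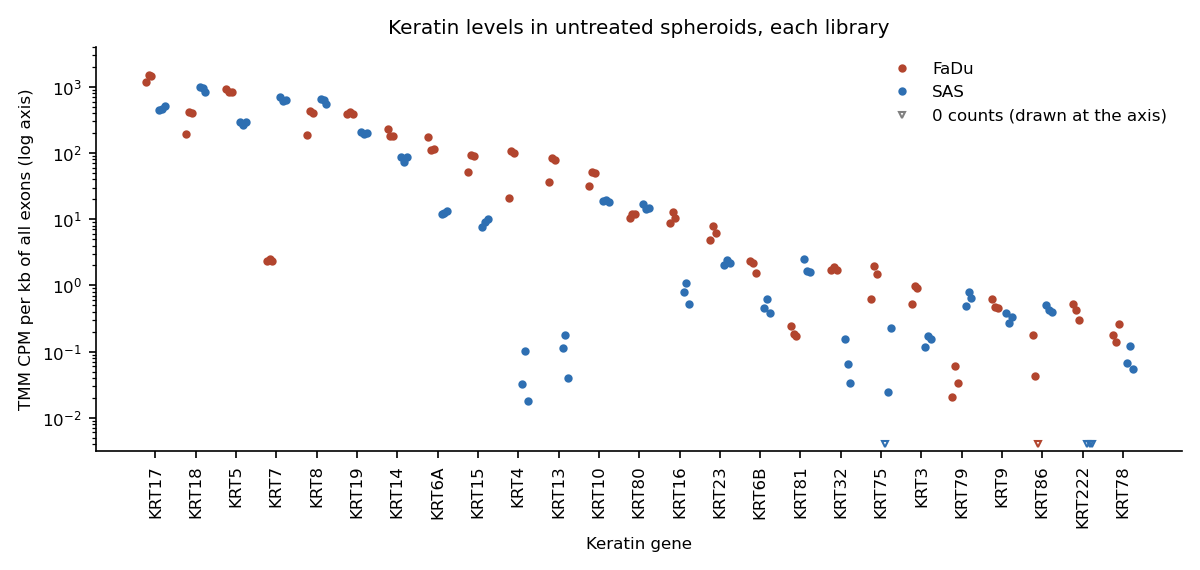
Level of the 25 tested keratins (x axis) in each control library, in TMM CPM per kb of all exons on a log axis, with FaDu in red, SAS in blue and libraries with 0 counts as open triangles at the axis. KRT17 and KRT5 are highest in FaDu, KRT18, KRT7 and KRT8 in SAS, and KRT4, KRT13 and KRT7 differ most in level between the lines among the keratins over 1 CPM per kb.

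The comparison of FaDu with SAS asks how the lines differ before and after treatment. In the controls, 16 of 24 tested keratins were higher in FaDu, where 21.2% of all tested genes were, and 5 were higher in SAS, where 16.9% of all tested genes were. The FaDu-higher genes were all 3 basal keratins, all 4 tested wound keratins, 4 of 5 tested suprabasal and mucosal keratins, KRT19 of the simple epithelial keratins, KRT32 and KRT75 of the hair follicle keratins, and KRT23 and KRT222. The SAS-higher genes were KRT7 and KRT18 of the simple epithelial keratins, the hair keratins KRT81 and KRT86, and KRT79, a keratin of the hair follicle opening. The median log2 fold change over the 24 was 1.54, beside 0.03 over all genes tested. Of the 24, 10 were under 1 CPM in 1 line and entered the test through the line where they are high, so the count over tested keratins does not describe the family as a whole.

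The mucosal pair differed most. KRT4 stood at 70.3, 358 and 334 CPM in FaDu controls and at 0.109, 0.342 and 0.0589 CPM in SAS controls. KRT13, its type I partner, stood at 105, 242 and 225 CPM in FaDu and at 0.326, 0.513 and 0.118 CPM in SAS. All FaDu libraries, replicate 1 included, lie above all SAS libraries for both genes. The SAS controls together held 9 counts of KRT4 and 17 of KRT13, and the ratio of summed CPM without TMM scaling was 1760.3 for KRT4 (95% counting interval 927 to 3850.4) and 692 for KRT13 (432 to 1188). The fitted log2 fold change was 10.52 ± 0.89 for KRT4 (edgeR adjusted p = 1.2e-06) and 9.22 ± 0.47 for KRT13 (edgeR adjusted p = 2.5e-08). Without FaDu replicate 1 these were 10.97 ± 0.16 and 9.51 ± 0.16, and KRT4 was at 11.46 without SAS Control replicate 2. Counting intervals cover counting error only.

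The simple epithelial keratins went the other way, apart from KRT19. KRT7, which marks many glandular and ductal epithelia, stood at 9.44, 10.3 and 9.56 CPM in FaDu controls and at 2840.0, 2532 and 2599 CPM in SAS controls. The groups are far apart with little spread in either, and the fitted log2 fold change of FaDu over SAS was -8.05 ± 0.09 (edgeR adjusted p = 2.4e-12). KRT18, the type I partner of KRT8, stood at 618, 1319 and 1273 CPM in FaDu and at 3256, 3133 and 2701 CPM in SAS, with no overlap. Its log2 fold change was -1.47 ± 0.23, and -1.19 ± 0.07 without FaDu replicate 1. KRT8 itself stood at 4509, 4427 and 3810.1 CPM in SAS controls, above every FaDu control, with a log2 fold change of -0.83 ± 0.24 (edgeR adjusted p = 0.0096) that does not reach the fold threshold. Without FaDu replicate 1 it was -0.52 ± 0.07, a smaller difference, and without FaDu Control replicate 2 it was -1.02, past the fold threshold. KRT19, the short type I keratin that lacks most of the tail domain, was higher in FaDu, at 919, 974 and 917 against 486, 451 and 462 CPM, with a log2 fold change of 1.04 ± 0.06, just past the fold threshold.

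Basal and wound keratins were higher in FaDu. KRT5, the basal type II keratin, stood at 3988, 3617 and 3617 CPM in FaDu controls and at 1253, 1139 and 1261 CPM in SAS controls. KRT17, the most abundant wound keratin, stood at 3660.2, 4723 and 4554 CPM in FaDu and at 1420.1, 1469 and 1586 CPM in SAS. For both genes every FaDu library lies above every SAS library, and the log2 fold changes were 1.65 ± 0.07 for KRT5 and 1.56 ± 0.10 for KRT17. Larger differences were seen for KRT6A (393 ± 110.0 against 36.9 ± 1.46 CPM, log2 fold change 3.45 ± 0.17), for its type I partner KRT16 (26.5 ± 5.10 against 2.0 ± 0.721 CPM, 3.75 ± 0.23) and for the basal keratin KRT15 (554 ± 169 against 63.8 ± 8.96 CPM, 3.15 ± 0.21). Without FaDu replicate 1 the log2 fold changes were 3.20 ± 0.07 for KRT6A and 3.39 ± 0.10 for KRT15. KRT14, the usual partner of KRT5, was at 453 ± 63.5 against 188 ± 18.9 CPM (1.30 ± 0.11). KRT10, a type I keratin of suprabasal cells, was at 95.0 ± 24.3 against 40.7 ± 1.09 CPM (1.25 ± 0.16), and KRT6B at 4.62 ± 0.960 against 1.11 ± 0.280 CPM (2.07 ± 0.27).

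Keratins at low levels also separated the lines. KRT222 had 81 counts in FaDu controls and 0 in SAS controls, which makes it at least 26.2-fold higher in FaDu against a floor of 3 counts over the SAS group. KRT32 and KRT75, keratins of the hair follicle, had 194 and 200 counts in FaDu controls and 8 and 10 in SAS controls, ratios of 23.5 (95% counting interval 11.7 to 55.3) and 19.4 (10.3 to 41.1). Single libraries move these: the fitted log2 fold change of KRT32 was 4.34 ± 0.39, and 5.08 without SAS Control replicate 1, and that of KRT75 was 4.05 ± 0.72, and 6.56 without SAS Control replicate 3 or 3.44 without SAS Control replicate 1. KRT3, known from the corneal epithelium, had 118 counts in FaDu and 18 in SAS controls, a ratio of 6.36 (3.86 to 11.1). On the SAS side, KRT79 stood at 0.0525, 0.153 and 0.0839 CPM in FaDu controls and at 1.25, 2.05 and 1.65 CPM in SAS controls, from 6 and 87 counts. The hair keratin KRT81 stood at 0.388 ± 0.0736 CPM in FaDu against 3.72 ± 1.02 CPM in SAS, and KRT86 at 0.174 ± 0.219 against 1.06 ± 0.129 CPM. The log2 fold change of KRT86 was -2.63 ± 0.65, -4.30 ± 0.72 without FaDu Control replicate 1 and -1.95 without FaDu Control replicate 3. The KRT86 gene overlaps KRT7 on the same strand and KRT81 on the other, and KRT81 and KRT86 share 90.9% of their coding sequence; whether counting kept the strands and shared reads apart is not stated, so how much of the KRT81 and KRT86 difference comes from reads of KRT7, which is 2657 CPM in SAS, was not tested.

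**Figure D3:**
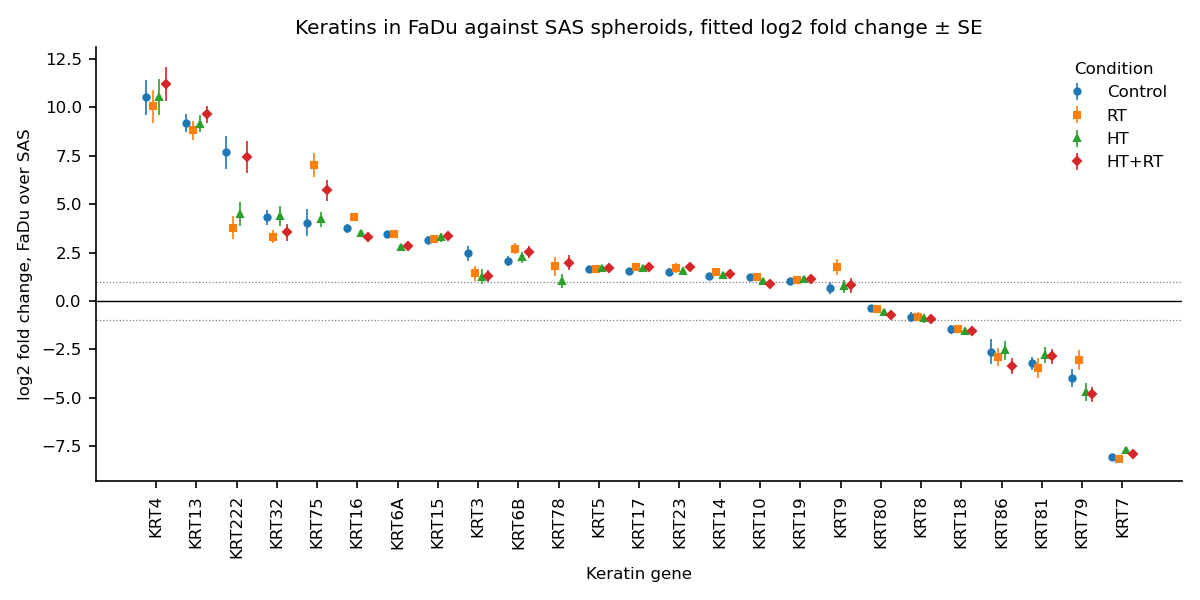
Fitted log2 fold change of FaDu over SAS (y axis, error bars ± SE) for the 25 tested keratins (x axis) in Control, RT, HT and HT+RT, with dotted lines at the fold threshold of 1 on either side. KRT4 and KRT13 lie furthest above 0 and KRT7 furthest below in all 4 conditions. SAS held few counts of KRT4, KRT13, KRT32, KRT75 and KRT222, so their values rest on these few counts.

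Position on the chromosomes was not part of how the genes were chosen. All type I genes except KRT18 lie on chromosome 17 together with KRT222, and the type II genes lie with KRT18 on chromosome 12. Of the 11 tested keratins on chromosome 17, 10 were higher in FaDu controls and 0 in SAS controls (edgeR), the exception being KRT9, at 0.66 ± 0.31 with an edgeR adjusted p of 0.071. Of the 13 on chromosome 12, 6 were higher in FaDu and 5 in SAS. Over all tested genes of any chromosome the shares were 21.2% and 16.9%. KRT222, KRT32 and KRT13 on chromosome 17 had 0, 8 and 17 counts in SAS controls. KRT75 and KRT4 on chromosome 12 had 10 and 9. All of these were tested through their FaDu counts. KRT79, KRT86 and KRT81 on chromosome 12, with 6, 10 and 24 counts in FaDu controls, were tested through their SAS counts. The numbers per chromosome thus do not describe the chromosomes. Along chromosome 12 the tested keratins come in the order KRT80, KRT7, KRT86, KRT81, KRT75, KRT6B, KRT6A, KRT5, KRT3, KRT4, KRT79, KRT78, KRT8 and KRT18. The 6 FaDu-higher genes, from KRT75 to KRT4, are thus neighbours in this order, with SAS-higher genes on both sides. This was seen in the data and was not tested.

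Treatment left the contrast in place. After RT, 18 of 25 tested keratins were higher in FaDu (21.7% of all genes) and 5 in SAS (17%). After HT the counts were 17 (21.9% of genes) and 5 (18.2%) of 25, and after HT+RT 16 (22.1%) and 5 (18.3%) of 25. In all 4 conditions the same 15 keratins were called higher in FaDu and the same 5 in SAS. These comparisons use different libraries of the same lines. Leaving out libraries ended calls only for keratins near the thresholds. KRT6C had too few counts to be tested after HT with all libraries. It was tested under 5 alternatives and called higher in FaDu in each, at 3.19 to 4.06. These calls rest on its few FaDu counts, so their direction was close to fixed. Reads may also be shared with KRT6A and KRT6B. After RT, KRT19 was at 0.99 without SAS RT replicate 2. After HT, KRT10 was at 0.98 and 0.996 without FaDu HT replicates 2 and 3, KRT3 was at 0.79 without FaDu HT replicate 2 and lost its adjusted p without SAS HT replicate 2 (1.09). KRT78, at 1.02 ± 0.36 after HT, was lost without FaDu HT replicate 2 (0.99) or 3 (0.93) or SAS HT replicate 1 (0.91), 2 (1.15) or 3 (0.97), with the DESeq2 Wald test (1.04), with the replicate block (1.02), without a low-count filter (0.985) and with all groups in 1 fit (0.971), and was called in 2 of 11 alternatives. KRT3, KRT78 and KRT9 have few counts. With a filter of at least 10 counts in every library, fewer keratins are tested and 12, 12, 13 and 11 were altered in Control, RT, HT and HT+RT. These counts cannot be set beside those above.

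Genes that anchor keratins or mark the same layers also differed between the control groups. The counts of the 4 lists below stand beside 21.2% of all genes higher in FaDu and 16.9% higher in SAS. Some members entered the test through the line where they are high, such as S100A8 and SOX2 in FaDu and VIM in SAS. The direction of their calls was close to fixed, so these counts do not describe the lists as a whole. Of 17 tested desmosome and linker genes, 7 were higher in FaDu and 2 in SAS, with a median log2 fold change of 0.80. COL17A1, a hemidesmosome collagen, differed most at 2.37 ± 0.22, and DSP, the desmosome protein that binds keratins, was at 887 ± 131 CPM in FaDu and 341 ± 83.5 CPM in SAS. PLEC, the linker that ties keratins to hemidesmosomes, went the other way at -1.88 ± 0.08. Of 12 tested cornified envelope genes, 7 were higher in FaDu (S100A8, 8.38 ± 0.44, and TGM1, the membrane transglutaminase, 5.43 ± 0.25) and 4 in SAS (KLK5, a protease of the shedding surface, -4.04 ± 0.14). Of 16 epidermal transcription factors, 5 were higher in FaDu (SOX2, 5.42 ± 0.37, KLF4, 2.37 ± 0.16, ZNF750, 1.69 ± 0.17, and GRHL1, 1.50 ± 0.13 among them) and 1 in SAS (GRHL3, -1.39 ± 0.32); KLF5 was at 316 CPM in FaDu controls. Of 9 other intermediate filament genes, 3 were higher in FaDu and 2 in SAS; VIM, the filament of mesenchymal cells, was at 0.0559 CPM in FaDu and 2.65 CPM in SAS, and LMNA of the nuclear lamina was at 359 and 412 CPM.

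The comparison of RT with controls asks what radiation alone did within 0.5 h. In FaDu, 0 of 22 tested keratins were altered by edgeR, where 0.00643% of all genes were (1 gene), 0 had an unadjusted p under 0.05, and DESeq2 called 0. In SAS, 0 of 18 were altered by edgeR, where 0.0272% of all genes were (4 genes), 1 had an unadjusted p under 0.05, and DESeq2 called 0. In SAS the genes at high levels bound this tightly: KRT8 had a log2 fold change of -0.02 ± 0.08, KRT18 of -0.02 ± 0.08 and KRT7 of 0.00 ± 0.07. In FaDu the bound is looser for some. Over 13 alternatives KRT8 ran from -0.31 to 0.28 and KRT18 from -0.28 to 0.24, while KRT17 ran from -0.05 to 0.13. The SAS gene with an unadjusted p under 0.05 was KRT14, the basal type I keratin, at 196, 166 and 202 CPM in controls and 171, 142 and 163 CPM after RT. The groups overlap, but each RT library is below the control library with the same number, and KRT14 was at -0.24 ± 0.09 (edgeR adjusted p = 0.71) and at -0.24 ± 0.05 with replicate number as a block (edgeR adjusted p = 0.0045, range over all alternatives 0.0045 to 1.0). With that block and adjusted p alone it was 1 of 18 keratins, where 0.702% of genes were lower.

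In the main edgeR fits, the keratins past the adjusted p in the heat comparisons were all higher, most by less than 2-fold. In SAS after HT, 2 of 19 tested keratins were altered, KRT79 and KRT3, both higher, where 6.03% of all genes were altered. At adjusted p alone, 9 keratins were higher and 0 lower, where 12.2% of genes were higher: KRT6A, KRT10, KRT16, KRT79, KRT3, KRT80, KRT18, KRT8 and KRT17. The median over the 4 tested wound keratins was 0.70, beside 0.25 over the 19 keratins and 0.00 over all genes; these 4 ran from 0.23 ± 0.07 for KRT17 to 0.90 ± 0.27 for KRT16, KRT6B was not past the adjusted p, and the group was not tested as a set. The count of 9 rests on single libraries: it was 3 without SAS HT replicate 2, 4 without SAS HT replicate 1, 6 without SAS HT replicate 3, and 5, 6 and 5 without SAS Control replicates 1, 2 and 3, with KRT6A and KRT10 in all of these; DESeq2 gave 8. Along with these, the fibroblast marker list had 1 altered gene: its summed level was 1.96, 1.77 and 2.59 CPM in SAS controls and 31.8, 17.5 and 25.5 CPM after HT, nearly all of it COL1A1 (1.33 ± 0.444 CPM in controls and 23.6 ± 7.11 CPM after HT), while COL1A2, COL3A1, LUM and DCN stayed under 1 CPM, so the other defining fibroblast markers were near 0. The epithelial marker sum was 2238, 2094 and 2200.3 CPM in SAS controls and 1883, 1936 and 1958 CPM after HT, lower with no overlap; of its 10 genes 0 were altered in SAS and CLDN4, a tight junction gene, was altered in FaDu (1.07 ± 0.10).

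KRT6A gave the firmest response. It stood at 35.5, 36.8 and 38.4 CPM in SAS controls, 57.2, 64.5 and 72.7 CPM after HT and 56.6, 68.6 and 60.7 CPM after HT+RT. Every heated library lies above every unheated one, RT libraries (32.5, 37.0 and 39.2 CPM) included. The log2 fold change was 0.85 ± 0.09 after HT (edgeR adjusted p = 2.8e-05) and 0.80 ± 0.08 after HT+RT (2.9e-05), under the fold threshold but past the adjusted p in all 12 alternatives of each. KRT6A, KRT6B and KRT6C share 97.5% to 98.5% of their coding sequence, so reads may be shared among them; KRT6B was at 1.11 ± 0.280 CPM in SAS controls and 1.61 ± 0.444 CPM after HT.

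KRT16, the partner of KRT6A, was at 0.807 CPM per kb of all exons in SAS controls, beside 12.6 for KRT6A. It stood at 1.96, 2.74 and 1.30 CPM in controls and 2.09, 1.36 and 1.11 CPM in RT libraries, against 3.21, 3.49 and 4.28 CPM in HT libraries and 3.73, 4.27 and 4.66 CPM in HT+RT libraries. Heated and unheated libraries do not overlap. It was the 1 keratin of 18 altered in HT+RT against controls, where 6.36% of genes were altered, at 1.13 ± 0.25 (edgeR adjusted p = 0.007), and the 1 of 19 altered in HT+RT against RT, where 6.6% were, at 1.52 ± 0.25 (9.9e-04). After HT alone it was at 0.90 ± 0.27 (edgeR adjusted p = 0.03). Without SAS Control replicate 3 the HT+RT value was 0.90, no longer past the fold threshold. After HT it missed the adjusted p without SAS Control replicate 1 (0.87) or 3 (0.68) or SAS HT replicate 2 (0.94) or 3 (0.79), and without SAS Control replicate 2 it was at 1.20, past both thresholds.

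KRT10 moved little but evenly. It stood at 40.7, 41.8 and 39.6 CPM in SAS controls, 51.0, 54.7 and 56.5 CPM after HT and 54.5, 51.7 and 55.4 CPM after HT+RT. The heated libraries are all above the controls with a gap wider than the spread within either group, and the log2 fold change was 0.44 ± 0.07 (edgeR adjusted p = 7.4e-04), 0.46 ± 0.07 after HT+RT and 0.41 ± 0.06 in HT+RT against RT, past the adjusted p in all 12 alternatives of each. KRT80, a type II keratin of many epithelia, was at 66.6 ± 5.93 CPM in controls, 78.9 ± 4.39 after HT and 89.0 ± 5.24 after HT+RT, with log2 fold changes of 0.28 ± 0.08 and 0.47 ± 0.07.

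The 2 keratins past the fold threshold after HT have few counts. KRT79 stood at 1.25, 2.05 and 1.65 CPM in SAS controls and at 4.56, 2.50 and 3.63 CPM after HT, from 87 and 196 counts. The groups do not overlap, and its log2 fold change of 1.14 ± 0.29 (edgeR adjusted p = 0.013) fell to 0.96 without SAS Control replicate 1 and to 0.91 without SAS HT replicate 1. KRT3 stood at 0.272, 0.399 and 0.354 CPM in controls and at 0.958, 0.626 and 0.867 CPM after HT, from 18 and 45 counts. Its log2 fold change of 1.27 ± 0.41 had an edgeR adjusted p of 0.042, which ran from 0.032 to 0.15 over 11 alternatives and was past the threshold in 2 of them. It missed it without any of the 6 libraries, at 1.12, 1.40 and 1.30 without SAS Control replicates 1, 2 and 3 and at 1.14, 1.44 and 1.24 without SAS HT replicates 1, 2 and 3, and with the DESeq2 Wald test, which left 1 altered keratin.

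Of the abundant simple keratins in SAS, KRT8 and KRT18 rose slightly after HT, and KRT7 and KRT19 were not past the adjusted p. KRT8 stood at 4509, 4427 and 3810.1 CPM in controls and at 5007, 5269 and 4589.8 CPM after HT, and KRT18 at 3256, 3133 and 2701 and 3721, 3717 and 3321 CPM. Both pairs of groups are close but do not overlap. The log2 fold changes were 0.25 ± 0.07 and 0.28 ± 0.07, and with replicate number as a block 0.26 ± 0.05 and 0.28 ± 0.05 (edgeR adjusted p = 0.002 and 9.6e-04). KRT17 was at 0.23 ± 0.07. These small changes missed the adjusted p without some libraries: KRT8 without SAS Control replicate 3 (0.18) or SAS HT replicate 1 (0.24) or 2 (0.21), KRT18 without SAS HT replicate 1 (0.24) or 2 (0.25), KRT17 without SAS Control replicate 1 (0.18) or 2 (0.22) or SAS HT replicate 2 (0.24) or 3 (0.16), and KRT80 without SAS Control replicate 2 (0.24) or 3 (0.24) or SAS HT replicate 1 (0.24) or 2 (0.27). KRT7, KRT5, KRT15, KRT19 and KRT23 lay between -0.05 and 0.10.

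Heat with radiation gave a like list in SAS. At adjusted p alone 7 of 18 keratins were higher in HT+RT than in controls, where 13.6% of genes were, and 7 of 19 were higher in HT+RT than in RT, where 14.1% were; both contrasts share the HT+RT libraries. With DESeq2 these counts were 4 (without KRT8, KRT18 and KRT79) and 8, and with all groups in 1 fit 5 and 6. Leaving out 1 library gave 4 to 7, lowest without SAS HT+RT replicate 2, and 6 to 8. With replicate number as a block, 9 of 19 were higher after HT (14.6% of genes), 8 of 18 were higher (18.1%) and KRT19 lower (17.3% of genes lower) after HT+RT, and 8 of 19 were higher in HT+RT against RT (19.0%). KRT19 stood at 486, 451 and 462 CPM in controls and 409, 377 and 423 CPM after HT+RT, at -0.16 ± 0.04 with the block. It was also lower at adjusted p alone in the fit without a low-count filter, which has no block. KRT14 was higher in HT+RT than in RT at 0.33 ± 0.07 (edgeR adjusted p = 0.005), where the RT libraries were the low ones, and was at 0.09 ± 0.07 against controls. Without SAS Control replicate 3, KRT8 and KRT18 were at 0.12 and 0.12 after HT+RT and missed the adjusted p; KRT8 also missed it without SAS HT+RT replicate 1 (0.18) or 2 (0.17), KRT18 without SAS Control replicate 2 (0.22) or SAS HT+RT replicate 1 (0.17) or 2 (0.18), and KRT79 (0.82 ± 0.25) without SAS Control replicate 1 (0.64) or 3 (0.82) or SAS HT+RT replicate 1 (0.80) or 2 (0.73). In HT+RT against RT, KRT8 (0.21 ± 0.07) missed it without SAS RT replicate 2 (0.22) or 3 (0.14) or SAS HT+RT replicate 1 (0.19) or 2 (0.18).

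**Figure D4:**
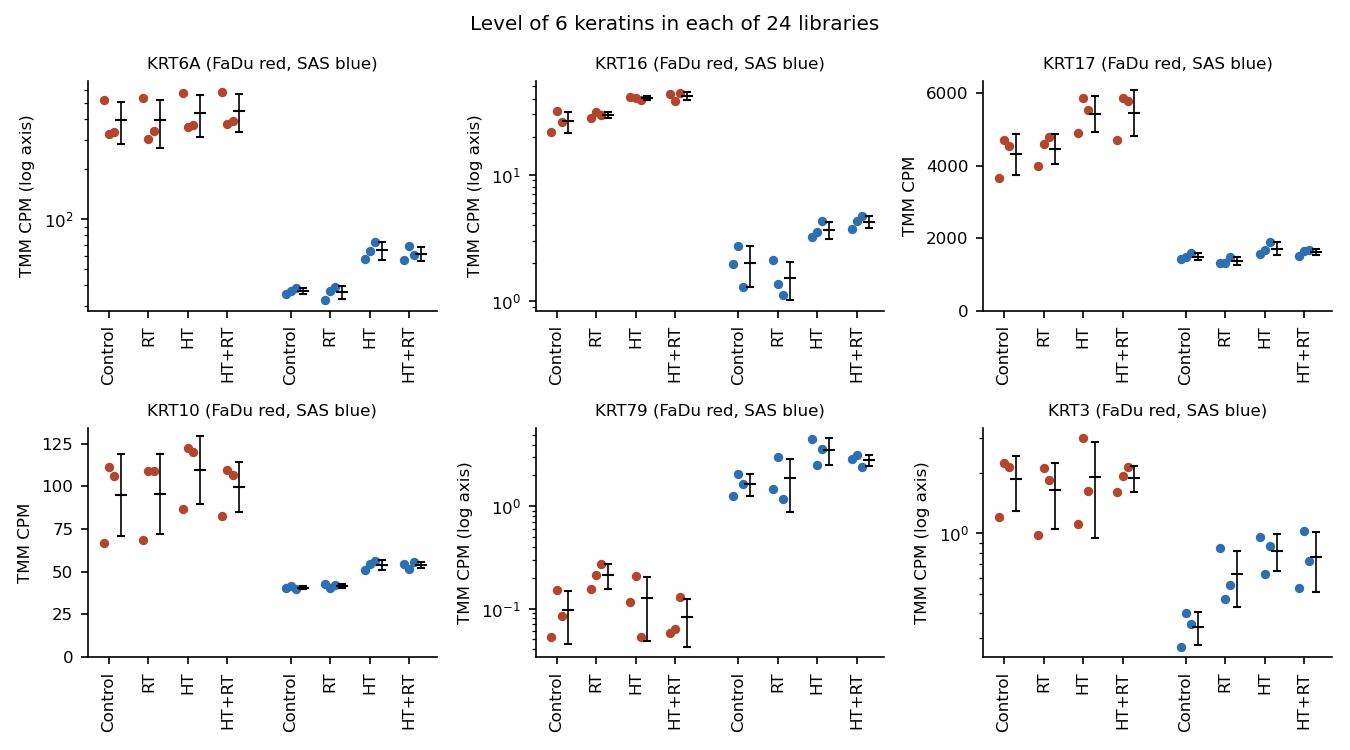
Level in TMM CPM (y axis, log where marked) of KRT6A, KRT16, KRT17, KRT10, KRT79 and KRT3 in each of the 24 libraries by condition (x axis), FaDu in red and SAS in blue, with black bars for mean ± SD (n = 3). In SAS, KRT6A, KRT16 and KRT10 are higher in all heated libraries than in all others; in FaDu, KRT6A shows the high replicate 1 in every group.

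In FaDu the heat responses were small against the spread that replicate 1 adds. After HT, HT+RT and in HT+RT against RT, 0 of 22 tested keratins were altered by edgeR in each, where 4.97%, 5.72% and 5.39% of all genes were; 4, 3 and 2 keratins had an unadjusted p under 0.05, and DESeq2 called 0 in each. At adjusted p alone 1 keratin, KRT16, was higher in each, where 7.95%, 9.52% and 9.37% of genes were higher. With DESeq2 at adjusted p alone there were 3, 3 and 2, KRT16 and KRT17 in each and KRT6B in the first pair; without a low-count filter there were also 3, 3 and 2, and with all groups in 1 fit 3, 2 and 1. KRT16 stood at 21.6, 31.8 and 26.0 CPM in FaDu controls and 28.2, 31.1 and 29.8 CPM in RT libraries, against 41.5, 40.7 and 39.1 CPM in HT libraries and 43.2, 38.4 and 44.3 CPM in HT+RT libraries. All heated libraries lie above all others, with log2 fold changes of 0.63 ± 0.13 (edgeR adjusted p = 0.011), 0.69 ± 0.13 (0.0067) and 0.52 ± 0.08 (0.0029). Without FaDu Control replicate 3 the HT value was 0.62 with an adjusted p just over 0.05.

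Comparing libraries of the same replicate number shows more. KRT17 stood at 3660.2, 4723 and 4554 CPM in FaDu controls and at 4891, 5875 and 5548 CPM after HT. Each HT library is above all 3 controls, with replicate 1 the lowest of its group both times. KRT17 was at 0.36 ± 0.11 without the block (edgeR adjusted p = 0.06) and at 0.36 ± 0.03 with it (6.4e-07). With replicate number as a block and adjusted p alone, 11 of 22 keratins were higher and 0 lower after HT, where 15.6% of genes were higher: KRT17, KRT16, KRT6B, KRT6A, KRT7, KRT10, KRT18, KRT14, KRT8, KRT5 and KRT13. After HT+RT there were 7 (16.5% of genes), and in HT+RT against RT 8 (15.2%), also with 0 lower. Marker sums stand beside this: the epithelial sum was 2486, 2360.3 and 2433 CPM in FaDu controls and 2274, 2271 and 2198 CPM after HT, and the fibroblast sum, nearly all COL1A1, was 36.1, 42.9 and 47.6 CPM in controls and 50.6, 48.4 and 64.1 CPM after HT. The first is lower and the second higher after HT, both without overlap, and COL1A1 was not past the adjusted p. Their sizes after HT ran from 0.13 ± 0.05 for KRT13 and 0.13 ± 0.03 for KRT5 to 0.64 ± 0.09 for KRT16 and 0.72 ± 0.16 for KRT6B, the latter at 5.30, 5.04 and 3.52 CPM in controls and 9.82, 5.96 and 6.86 CPM after HT.

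Leaving out replicate 1 of every FaDu group gave a similar picture without a block. The wound keratins KRT16, KRT17 and KRT6A and the basal keratin KRT14 were then higher at adjusted p alone in all 3 heat comparisons. In number, 8 keratins were higher after HT (13.8% of genes), 5 after HT+RT (15.9%) and 4 in HT+RT against RT (15.7%), with 0 lower and 0 past the fold threshold. KRT17 was at 0.33 ± 0.06 and KRT16 at 0.51 ± 0.10 after HT (edgeR adjusted p = 8.4e-05 and 2.8e-04). Over 13 alternatives the adjusted p of KRT17 after HT ran from 6.4e-07 to 0.19 and was past the threshold in 6; that of KRT16 ran from 4.0e-07 to 0.052 and was past it in 12.

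**Figure D5:**
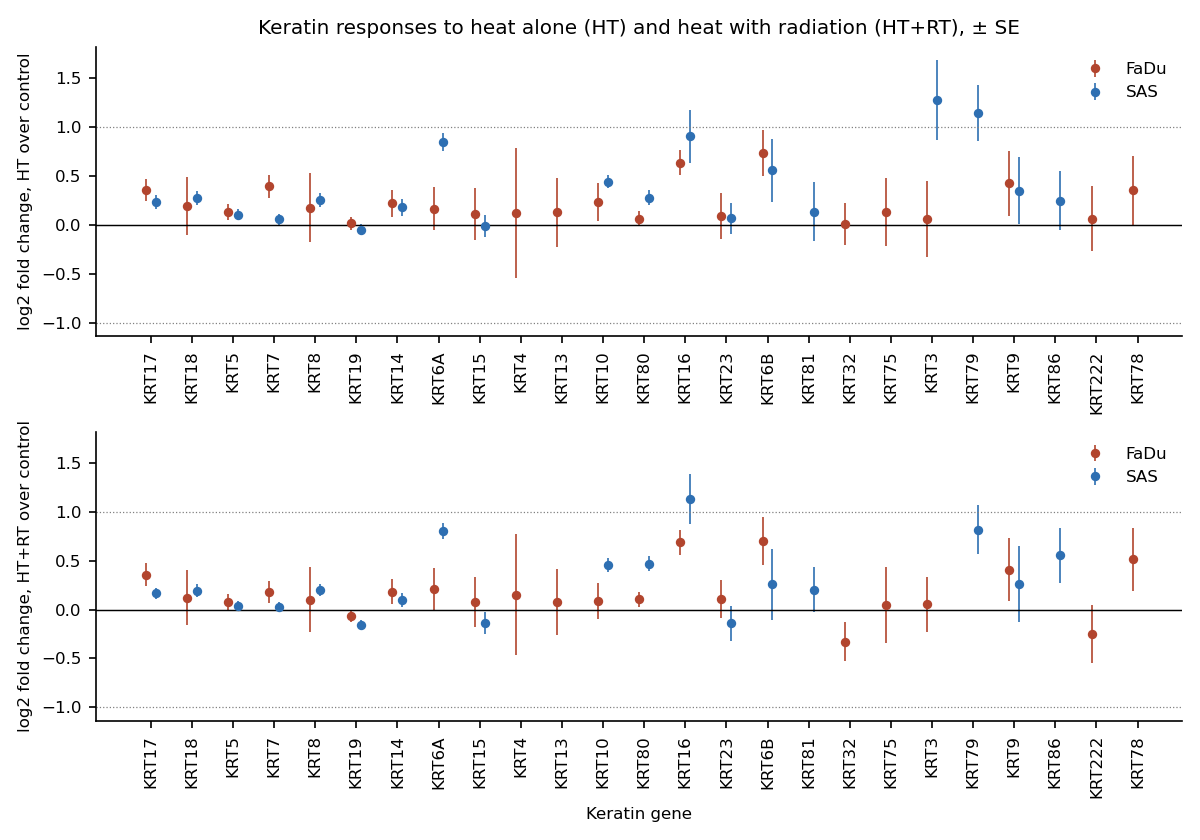
Fitted log2 fold change after HT (upper panel) and HT+RT (lower panel) over controls (y axis, error bars ± SE) for each tested keratin (x axis), FaDu in red and SAS in blue, with dotted lines at the fold threshold of 1. Most points lie between 0 and 1, KRT16 is above 0 in both lines, and the wide FaDu bars of KRT4, KRT8, KRT13 and KRT15 go with the low replicate 1.

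Whether the lines differ in their response to heat was tested by the interaction of line and treatment. By edgeR 0 of 25 keratins were altered for HT, where 2.74% of genes were, and 0 of 25 for HT+RT, where 3.40% were; 2 and 3 keratins had an unadjusted p under 0.05, and DESeq2 called 0 and 0. The lowest edgeR adjusted p of a keratin was 0.066 for HT (KRT7, 0.37 ± 0.11) and 0.091 for HT+RT (KRT80, -0.33 ± 0.11). KRT6A had FaDu levels of 393 ± 110.0 CPM in controls and 434 ± 124 CPM after HT, and its interaction was -0.65 ± 0.26 for HT (edgeR adjusted p = 0.20) and -0.56 ± 0.25 for HT+RT (0.24). Its blocked values were -0.65 ± 0.08 and -0.55 ± 0.08 (edgeR adjusted p = 9.6e-06 and 7.8e-06), and without FaDu replicate 1 -0.65 ± 0.11 and -0.54 ± 0.10 (0.0016 and 0.0026). Over 19 alternatives the range was 2.2e-07 to 0.38 for HT and 7.8e-06 to 0.44 for HT+RT. With the block and adjusted p alone 2 of 25 keratins differed for HT (11.0% of genes) and 5 for HT+RT (15%). Without FaDu replicate 1 these counts were 1 (6.57% of genes) and 2 (7.83%). All of these counts lie close to the shares of all genes. The size of the KRT6A interaction is nearly the same in these 3 fits, and its SE and adjusted p differ. Over the 19 alternatives the size ran from -0.95 to -0.40 for HT and from -0.84 to -0.30 for HT+RT. KRT6A was past the adjusted p in 4 of 19 alternatives for each treatment, among them the fit without a low-count filter, which keeps FaDu replicate 1.

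Other fixed lists put the keratin changes beside the rest of the epithelial programme. Of the desmosome and linker genes 0 of 18 in FaDu and 0 of 17 in SAS were altered after HT (edgeR; at adjusted p alone 0 in FaDu and 3 lower in SAS, where 11.4% of all genes were lower, with PLEC at -0.40 ± 0.08 and ITGA6, a hemidesmosome integrin, at -0.35 ± 0.06). Of the cornified envelope genes 0 of 12 in FaDu and 0 of 9 in SAS were altered (1 and 0 at adjusted p alone). Among the epidermal transcription factors 1 of 16 in FaDu and 1 of 15 in SAS was altered, close to the 4.97% and 6.03% of all genes; at adjusted p alone 2 were higher and 4 lower in FaDu, and 7 higher and 3 lower in SAS, where 7.95% of all genes were higher and 9.69% lower in FaDu, and 12.2% higher and 11.4% lower in SAS. The altered gene was in both lines OVOL1, a repressor active in keratinocyte differentiation, which stood in FaDu at 10.3 ± 0.462 CPM before and 73.4 ± 2.61 CPM after HT, and in SAS at 11.5 and 33.3 CPM. KLF5, which drives growth of basal cells, was at -0.71 ± 0.07 in FaDu and 0.72 ± 0.11 in SAS. TP63, the master regulator of stratified epithelia, was at -0.50 ± 0.08 in FaDu, and KLF4 at 0.98 ± 0.15 in SAS. Of the other intermediate filament genes 0 of 8 in FaDu and 1 of 7 in SAS was altered, SYNM at 1.32 ± 0.18. In HT+RT against RT in SAS, NES, the nestin gene, was altered as well, at 1.16 ± 0.17.

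Promoter windows of 250 bases before to 50 after the start, from RefSeq on GRCh38.p14, were at hand for 34 of the 55 keratins (38 windows) and for 9 of the 25 tested ones. Windows are shown for the keratins past the adjusted p after HT in the main SAS fit that have one (KRT3, KRT79, KRT8 and KRT10). Of these, KRT3 and KRT8 missed it in some of the alternatives given above. The window of KRT5 is also shown, since it holds a heat shock element core. The core was searched as GAANNTTC and TTCNNGAA on both strands, and the TATA box as TATAAA on the gene strand; capitals mark these letters, and the motifs overlap nowhere in these windows. All lie on the minus strand and are written 5' to 3' on that strand: KRT3 at chr12:52796068-52796367, KRT79 at chr12:52834262-52834561, KRT8 at chr12:52926420-52926719, KRT10 at chr17:40822565-40822864 and KRT5 at chr12:52520345-52520644.
KRT3: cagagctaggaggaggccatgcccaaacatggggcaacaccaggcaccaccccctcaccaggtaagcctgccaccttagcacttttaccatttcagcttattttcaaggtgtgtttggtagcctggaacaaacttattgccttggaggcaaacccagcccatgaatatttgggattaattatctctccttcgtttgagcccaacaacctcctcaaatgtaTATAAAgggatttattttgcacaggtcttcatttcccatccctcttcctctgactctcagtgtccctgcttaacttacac
KRT79: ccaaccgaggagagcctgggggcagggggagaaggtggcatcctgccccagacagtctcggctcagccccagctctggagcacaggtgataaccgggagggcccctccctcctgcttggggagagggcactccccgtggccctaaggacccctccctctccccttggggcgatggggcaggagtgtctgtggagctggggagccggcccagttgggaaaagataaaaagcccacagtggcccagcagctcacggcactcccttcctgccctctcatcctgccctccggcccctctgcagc
KRT8: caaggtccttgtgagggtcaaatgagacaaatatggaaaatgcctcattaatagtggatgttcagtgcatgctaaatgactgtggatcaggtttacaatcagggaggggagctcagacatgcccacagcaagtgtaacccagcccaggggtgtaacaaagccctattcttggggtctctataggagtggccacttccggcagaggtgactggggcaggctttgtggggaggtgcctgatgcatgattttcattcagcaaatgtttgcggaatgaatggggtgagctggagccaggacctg
KRT10: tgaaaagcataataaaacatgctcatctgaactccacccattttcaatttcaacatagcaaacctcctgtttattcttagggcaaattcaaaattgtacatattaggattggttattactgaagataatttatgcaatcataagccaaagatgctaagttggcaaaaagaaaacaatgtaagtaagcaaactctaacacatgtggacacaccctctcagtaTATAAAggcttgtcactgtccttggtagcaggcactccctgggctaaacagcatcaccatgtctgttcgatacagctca
KRT5: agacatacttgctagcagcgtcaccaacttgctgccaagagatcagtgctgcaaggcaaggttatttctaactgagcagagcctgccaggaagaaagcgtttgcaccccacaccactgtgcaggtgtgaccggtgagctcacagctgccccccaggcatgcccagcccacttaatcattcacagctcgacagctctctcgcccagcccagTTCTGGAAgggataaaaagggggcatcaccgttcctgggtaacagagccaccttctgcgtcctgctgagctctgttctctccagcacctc
TATAAA begins at -30 in KRT3 and -29 in KRT10, and the core at -40 in KRT5. The core is in 5 of the 38 keratin windows (13.2%) and in 13.5% of 35116 windows of all genes, and TATAAA is in 19 of 38 (50%) and in 7.33%. The AP-1 letters TGANTCA, on both strands, are in 0 of 38 and in 7.71% of all windows. A match describes letters only, and no match says only that these letters are not in that window.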

How the data were processed

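Deposited raw counts per gene for 24 libraries were used; the authors deposited these counts in tables for pairs of groups, and libraries present in several tables held equal counts. The aligner and the use of strand in counting are not given in the sources used here, and the processing notes give a mouse build (mm9) although the identifiers are human Ensembl genes, so no coordinates were taken from the count files; promoter windows are RefSeq on GRCh38.p14 and gene order is from GENCODE 29. Genes were matched by Ensembl identifier to GENCODE release 29 (56898 of 57500 found).

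TMM factors, filterByExpr with a minimum count of 10, and quasi-likelihood tests came from edgeR 4.0.16 in R 4.3.3, each fit on the libraries of the groups compared and over all genes, with Benjamini-Hochberg adjustment; the SE is the absolute log2 fold change over the square root of F. The p-values reflect 3 replicates per group, which the study's methods describe as independent experiments, and the thresholds are those of the same methods. The fit was tested on simulated data with 200 changed genes, of which 174 were recovered with 3 false calls. A check of pairing correlated replicates of the same number: all correlations were over 0.1 in the 4 FaDu treatment comparisons and in RT, HT+RT and HT+RT against RT in SAS, but not in HT in SAS (0.026 to 0.18) or in FaDu against SAS, so blocked values are given beside the others. Coding identities were computed with edlib 1.3.9.post1.

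Tried as alternatives: leaving out each library, adjusted p alone, CPM without TMM, a block for replicate number, a single fit of all groups, a filter of 10 counts in every library or none, size factors by RLE, the Wald test of DESeq2 1.42.0, and, chosen after seeing the data, principal transcript length, the block with adjusted p alone, and leaving out FaDu replicate 1 in all conditions, alone and with adjusted p alone. The members and lists were chosen with earlier results of these data known. Named keratins are those with a mean of at least 1 CPM per kb in a group or altered in a comparison; from other lists, altered members (at most the 4 with the largest change) and the one with the most CPM; keratin pseudogenes altered by heat with a mean of 1 CPM; others were named after their values were seen. The level of 1 transcription factor gene is not reported here.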

Additional observations from a re-analysis of the deposited data

Results flagged for a closer look

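Tests of the interaction of line and heat with replicate number as a block called 2 of 25 keratins for HT, where 11.0% of all genes were called, and 5 of 25 for HT+RT, where 15% were; the values are differences of log2 fold changes, FaDu minus SAS, past an adjusted p of 0.05 by edgeR, and 0 of them are past the fold threshold. These counts lie close to the shares of all genes, so they do not set keratins apart from other genes. KRT6A differed by -0.65 ± 0.08 (SE) for HT and -0.55 ± 0.08 for HT+RT, with the larger rise in SAS. KRT7 differed by 0.36 ± 0.09 for HT, where FaDu stood at 9.78 ± 0.485 and 12.6 ± 1.23 CPM and SAS stood at 2657 ± 162 and 2702 ± 97.5 CPM. For HT+RT, KRT80 differed by -0.33 ± 0.09, KRT10 by -0.32 ± 0.09, KRT15 by 0.26 ± 0.08 and KRT17 by 0.23 ± 0.06. These sizes move with the processing. Over 19 alternatives for HT+RT, KRT80 ran from -0.46 to -0.30 and KRT10 from -0.53 to -0.20. KRT15 ran from 0.015 to 0.41 and KRT17 from 0.12 to 0.30. For HT, KRT7 ran from 0.24 to 0.41 and KRT6A from -0.95 to -0.40. Without the block the adjusted p were 0.20 and 0.24 for KRT6A, 0.066 for KRT7, 0.091 for KRT80, 0.43 for KRT10, 0.75 for KRT15 and 0.42 for KRT17. The HT values use SAS libraries in which not all correlations in the pairing check were over 0.1. The part of FaDu replicate 1 in these values is given by leaving it out, after which KRT6A (HT and HT+RT) and KRT10 (HT+RT) are past the adjusted p.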

How the results depend on the processing

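For keratins past the thresholds or adjusted p alone, 1537 fold changes under alternatives kept direction and call, 72 lost the call and 0 reversed; keratins that were not called are not in this tally, and some change sign (KRT6A after RT in FaDu, -0.29 to 0.25). Leaving out each library gave 0 altered keratins in the FaDu treatment comparisons, RT in SAS and both interactions; elsewhere the counts ran from 0 to 2 in HT and in HT+RT in SAS, from 1 to 2 in HT+RT against RT in SAS, and from 21 to 23, 22 to 23, 21 to 22 and 21 to 23 in FaDu against SAS in Control, RT, HT and HT+RT. For HT in SAS the count was 1 with DESeq2, without a low-count filter, with at least 10 counts in every library and with the replicate block; for HT+RT in SAS it was 2 with all groups in 1 fit. With at least 10 counts in every library 12, 12, 13 and 11 keratins were altered in FaDu against SAS in Control, RT, HT and HT+RT, since fewer genes were tested. With adjusted p alone the counts were 1, 1 and 1 in FaDu and 9, 7 and 7 in SAS for HT, HT+RT and HT+RT against RT. With the replicate block and adjusted p alone (paired by number) they were 11, 7 and 8 in FaDu, 9, 9 and 8 in SAS, 1 for RT in SAS, and 2 and 5 for the interactions with HT and HT+RT. Without FaDu replicate 1 and with adjusted p alone they were 8, 5 and 4 in FaDu and 1 and 2 for the interactions. Without the most abundant keratin the share of counts was 1.11% in FaDu and 0.893% in SAS. Causes beyond the number of genes tested were not tested. Depth limits the 30 keratins that were not tested in the main fits, and keratins under about 1 CPM, whose fold changes rest on few counts. Some of the 30 were tested under alternatives, and most of those were not called. KRT27 (4.18 to 6.19) and KRT74 (2.82 to 5.63) were called higher in FaDu than in SAS under 1 alternative, in all 4 conditions. KRT1, KRT6C and KRT83 were called higher in FaDu in some of the conditions. With so few counts, such calls can hardly go against the line that holds them, so their direction was close to fixed.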

Other observations

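Keratin pseudogenes, which are copies of keratin genes not counted among the 55, were counted separately. Of 147 keratin pseudogenes, 6 of 11 tested were higher after HT in FaDu, 4 of 11 after HT+RT and 4 of 10 in HT+RT against RT, with 0 lower (edgeR); in SAS 0 of 9, 0 of 9 and 0 of 11 were altered. Of all genes tested, 682 of 15879, 808 of 15896 and 757 of 15905 were higher in FaDu and 797 of 15000, 861 of 14938 and 864 of 15125 in SAS. In RT against controls in FaDu 7 were tested: a pseudogene near 0 in controls enters the heat tests through the heated group, so a call of higher is close to fixed for it, and these counts do not describe pseudogenes as a whole. KRT8P12 stood at 6.45, 7.13 and 5.58 CPM in FaDu controls and at 16.6, 17.2 and 17.7 CPM after HT, a log2 fold change of 1.45 ± 0.13 (edgeR adjusted p = 0.00019), and at 5.98 ± 1.61 and 9.87 ± 1.58 CPM in SAS (0.75 ± 0.19), where it was past the adjusted p but not the fold threshold in all 3 heat comparisons (0.015, 0.017 and 0.014). The heated FaDu libraries are all above the controls. It lies within KPNA4 on the opposite strand. KRT17P1, which overlaps no other gene, stood at 0.682, 0.764 and 0.545 CPM in FaDu controls and at 2.57, 2.04 and 1.79 CPM after HT (1.70 ± 0.28). KRT8P33, inside CEP120 on the same strand, was at 0.293 ± 0.144 and 1.22 ± 0.272 CPM, and KRT18P7, opposite MED6, at 0.0280 ± 0.0484 and 0.93 ± 0.305 CPM in FaDu controls and after HT; both are low in controls. The interaction with line called 0 of 14 pseudogenes for HT and 0 of 14 for HT+RT (edgeR). Whether reads of the parent keratins or of the surrounding genes add to these counts was not tested.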
